A study of Homo sapiens with 10 samples.

Results

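The transcription factors described here are the FOS family (FOS, FOSB, FOSL1 and FOSL2), the JUN family (JUN, JUNB and JUND), ATF3, EGR1 and MAFF, that is, the subunits of AP-1 together with 3 stimulus-induced factors. They were taken as every probe set whose platform annotation gives exactly 1 gene symbol that is one of these 10 names. This gave 25 probe sets of 10 genes among 54675 probe sets on the array. The RNA came from IMR90, a line of fibroblasts from human fetal lung, and was hybridised to 5 arrays of proliferating cells at 28 population doublings and 5 arrays of senescent cells at 90 population doublings. Both groups grew in 10% serum at 3% oxygen, and the senescent cells had been passaged until growth ceased and then kept in their dishes for 2 weeks. No transgene, knockdown or drug is named in the labels for either group. Passage number, growth state and the time in the dish differ together between the groups, and the labels do not give the time since the last change of medium or state that each array had a culture of its own. The p-values below therefore measure only the spread between these arrays, which may be technical, and 5 arrays per group limit the precision.

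AP-1 is a dimer of basic leucine zipper proteins. JUN proteins can pair with each other or with FOS proteins, whereas FOS proteins need a JUN partner, and the subunits differ in how strongly they activate transcription, with FOSL1 and FOSL2 lacking the strong activation domain of FOS. FOS, FOSB, JUN, JUNB, ATF3, EGR1 and MAFF are known as immediate early genes, which growth factors, serum or stress switch on within minutes through factors already present in the cell, and in fibroblasts the burst of FOS and EGR1 after serum is the textbook case. JUND is known for a steadier level, FOSL1 and FOSL2 for a later and longer response, and ATF3 and the small MAF protein MAFF for a response to stress.

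Some elements through which serum and stress act on immediate early genes lie close to their start sites, so the 250 bases before the RefSeq start are shown for 6 of the genes described below (assembly GRCh38.p14). Entries for 9 of the 10 genes (all but FOSL1) were matched by symbol, with 11 start sites. Capitals mark matches on either strand to the CRE TGACGTCA, to its core TGACG (which is also counted inside a CRE), to the AP-1 site of the JUN promoter TGACATCA, to the AP-1 site TGANTCA and to the CArG box bound by serum response factor. Each sequence is written 5′ to 3′ on the strand of its gene.
EGR1, chr5:138465229-138465478, plus strand: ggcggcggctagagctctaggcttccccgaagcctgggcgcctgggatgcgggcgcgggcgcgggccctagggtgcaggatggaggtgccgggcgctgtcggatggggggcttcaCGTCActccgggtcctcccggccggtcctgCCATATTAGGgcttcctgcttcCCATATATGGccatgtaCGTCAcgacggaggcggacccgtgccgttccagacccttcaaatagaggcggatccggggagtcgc
FOS, chr14:75278578-75278827, plus strand: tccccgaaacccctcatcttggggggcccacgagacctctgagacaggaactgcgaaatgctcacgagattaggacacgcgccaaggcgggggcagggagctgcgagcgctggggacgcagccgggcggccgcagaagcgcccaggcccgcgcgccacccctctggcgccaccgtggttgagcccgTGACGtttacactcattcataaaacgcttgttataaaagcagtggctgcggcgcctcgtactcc
FOSL2, chr2:28392608-28392857, plus strand: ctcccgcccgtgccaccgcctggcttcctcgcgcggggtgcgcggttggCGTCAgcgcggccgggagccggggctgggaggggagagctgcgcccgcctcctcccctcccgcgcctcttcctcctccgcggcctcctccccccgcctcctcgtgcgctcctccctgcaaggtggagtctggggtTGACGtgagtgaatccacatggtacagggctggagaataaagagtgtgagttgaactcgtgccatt
JUN, chr1:58784048-58784297, minus strand: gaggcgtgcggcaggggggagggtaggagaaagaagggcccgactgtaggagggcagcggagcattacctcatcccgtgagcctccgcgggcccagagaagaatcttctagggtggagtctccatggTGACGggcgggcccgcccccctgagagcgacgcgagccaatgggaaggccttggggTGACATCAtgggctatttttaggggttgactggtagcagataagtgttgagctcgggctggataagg
ATF3, the first of its 2 start sites, chr1:212565157-212565406, plus strand: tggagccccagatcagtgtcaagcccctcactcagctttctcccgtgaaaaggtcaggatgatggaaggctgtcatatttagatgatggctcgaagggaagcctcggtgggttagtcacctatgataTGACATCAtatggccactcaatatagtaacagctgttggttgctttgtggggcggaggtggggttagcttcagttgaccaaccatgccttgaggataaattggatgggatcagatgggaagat
MAFF, the first of its 2 start sites, chr22:38201744-38201993, plus strand: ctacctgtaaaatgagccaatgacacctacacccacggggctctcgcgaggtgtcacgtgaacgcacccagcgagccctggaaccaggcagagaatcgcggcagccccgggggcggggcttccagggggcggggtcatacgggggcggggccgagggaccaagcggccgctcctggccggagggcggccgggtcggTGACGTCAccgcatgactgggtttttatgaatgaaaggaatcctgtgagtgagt
EGR1 alone had CArG boxes in this window, 2 of them, beginning 105 and 83 bases before the start, and 1.16% of 35116 promoter entries hold at least 1. Bases further upstream were not searched, so the other genes may hold CArG boxes there. The core TGACG was found before 8 of the 9 genes (all but ATF3), that is, in 8 of their 11 entries, against 21.2% of all entries. For ATF3 only the windows of its 2 listed start sites were searched, and any further start could hold the core. The core began 64 bases before the start in FOS, 60 in FOSB and 66 in FOSL2 and EGR1, the last 2 with a further match upstream. In JUN it began at 123, in JUNB at 137 and in JUND, nearest to the start, at 86, and in MAFF it lay inside the full TGACGTCA. The full TGACGTCA was found 54 bases before the first start of MAFF and 200 before that of JUND (1.65% of all entries). TGACATCA was found 67 bases before the start of JUN and 123 bases before the first start of ATF3 (2.37% of all entries), and TGANTCA before none of the 11 starts (6.57% of all entries). The GC content of the member windows ran from 44.8% to 74.8%, and the shares over all entries were not matched to it. A match is a description of the letters in the window and not a measured binding site.

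**Figure D1:**
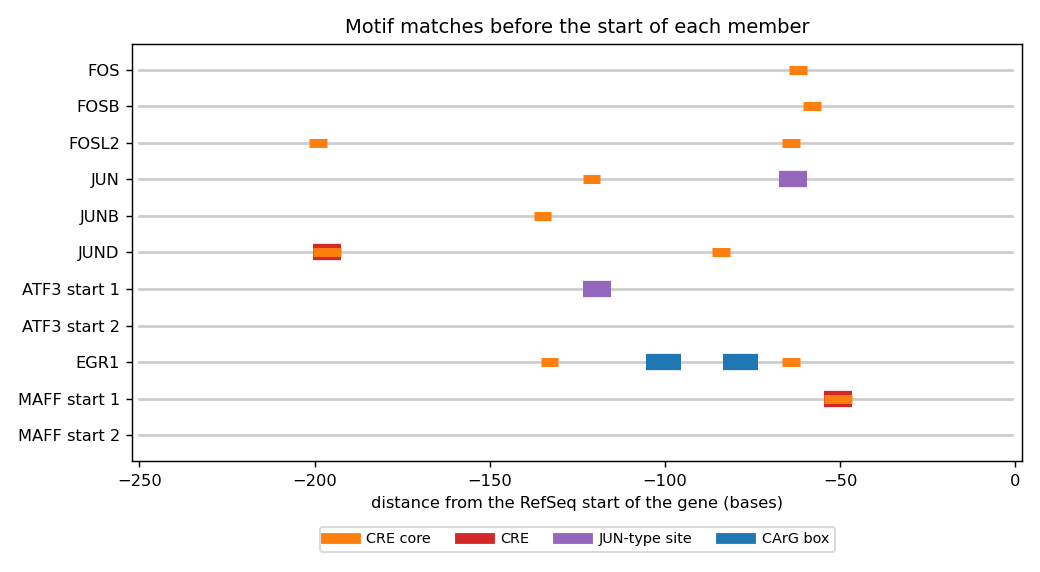
Each line is the window before the RefSeq start of a member gene, with the distance from the start in bases on the x axis, and each coloured block is a motif match on either strand. Within the window the CArG boxes stand in EGR1 alone. A CRE core begins 60 to 66 bases before the start in FOS, FOSB, FOSL2 and EGR1, and elsewhere in JUN, JUNB, JUND and MAFF.

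Fibroblast markers were present in both groups, all 14 of 14 above the 60th percentile of every array, whereas 8 of 8 endothelial and 6 of 6 measured leukocyte markers were above it on none. Their mean log2 value over the list was 11.86 to 12.15 on proliferating and 11.74 to 11.84 on senescent arrays for fibroblast markers, 2.30 to 2.33 and 2.31 to 2.37 for endothelial markers, and 2.46 to 2.49 and 2.48 to 2.57 for leukocyte markers. The fibroblast mean hides movements in both directions. Of the 14, 6 fell, POSTN from 11.25 to 7.94 among them, 4 rose, LUM from 10.45 to 11.94 among them, and 4 did not pass. Smooth muscle markers (6 of 8 above the 60th percentile on all arrays) were at 7.18 to 7.44 and 7.82 to 7.94, with DES above it on no array. Of the 7 tested, 4 rose, SYNPO2 from 6.41 to 10.41 and ACTA2, LMOD1 and ACTG2 by less, and MYH11 fell. Epithelial markers (5 of 8 above it on no array, CDH1 among them) were at 3.35 to 3.41 and 2.88 to 3.11, with EPCAM falling from 6.49 to 4.18 and KRT19 from 5.41 to 4.15 while KRT15 rose from 4.23 to 4.60. The part of smooth muscle and epithelial genes in the results below was not tested, and in RNA from whole cultures a change in the share of cells of a kind and a change in the RNA of each cell cannot be told apart. The 3′ minus 5′ difference of the ACTB control probe sets, a sign of RNA integrity, was 2.07 ± 0.14 on proliferating and 2.32 ± 0.10 on senescent arrays (SD, n = 5 each, exact permutation p = 0.00794, two-sided, 0.0106 adjusted over 4 control differences). The 3′ minus middle differences of ACTB and GAPDH were also larger on senescent arrays, by 0.18 and 0.23 (adjusted exact permutation p = 0.0106 each). The 3′ minus 5′ difference of GAPDH was larger by 0.15 and did not pass (adjusted exact permutation p = 0.13). The part of RNA integrity in the results was not tested beyond a fit with the ACTB 3′ minus 5′ difference as a covariate, whose values are given where they matter.

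The members did not move as a single group. EGR1 and FOSL2 fell, EGR1 by 2.95-fold on the probe set 201694_s_at and FOSL2 by 2.51-fold on its brightest probe set, and ATF3 rose 4.31-fold. MAFF rose 1.75-fold, FOSL1 fell 1.73-fold, the JUN probe sets fell by 1.14-fold to 1.28-fold and JUND by 1.23-fold. JUNB did not pass the test, and FOS and FOSB had little signal in either group. The filter for testing asked for a value above the 40th percentile of the array, 2.66 to 2.74 on the log2 scale, on at least 5 arrays. This left 18 of the 25 probe sets, of 8 genes, and all 18 lay above that percentile on all 10 arrays, so none passed through one group alone. Of the 18, 14 were lower and 3 higher in senescent cells at limma's adjusted p under 0.05, where 26.2% of all 32732 tested probe sets were lower and 26.9% higher (53.0% in either direction). The groups did not overlap in 15 of the 18 (44.5% of all tested probe sets). Several of these probe sets measure the same gene, up to 5 for FOSL2, so the counts are not over independent measurements. Over the 8 genes, each represented by the brightest of its tested probe sets, 5 were lower and 2 higher (29.8% and 30.5% of 12909 tested genes, 60.2% together), and the median difference was -0.24 against 0.04 over all tested genes.

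**Figure D2:**
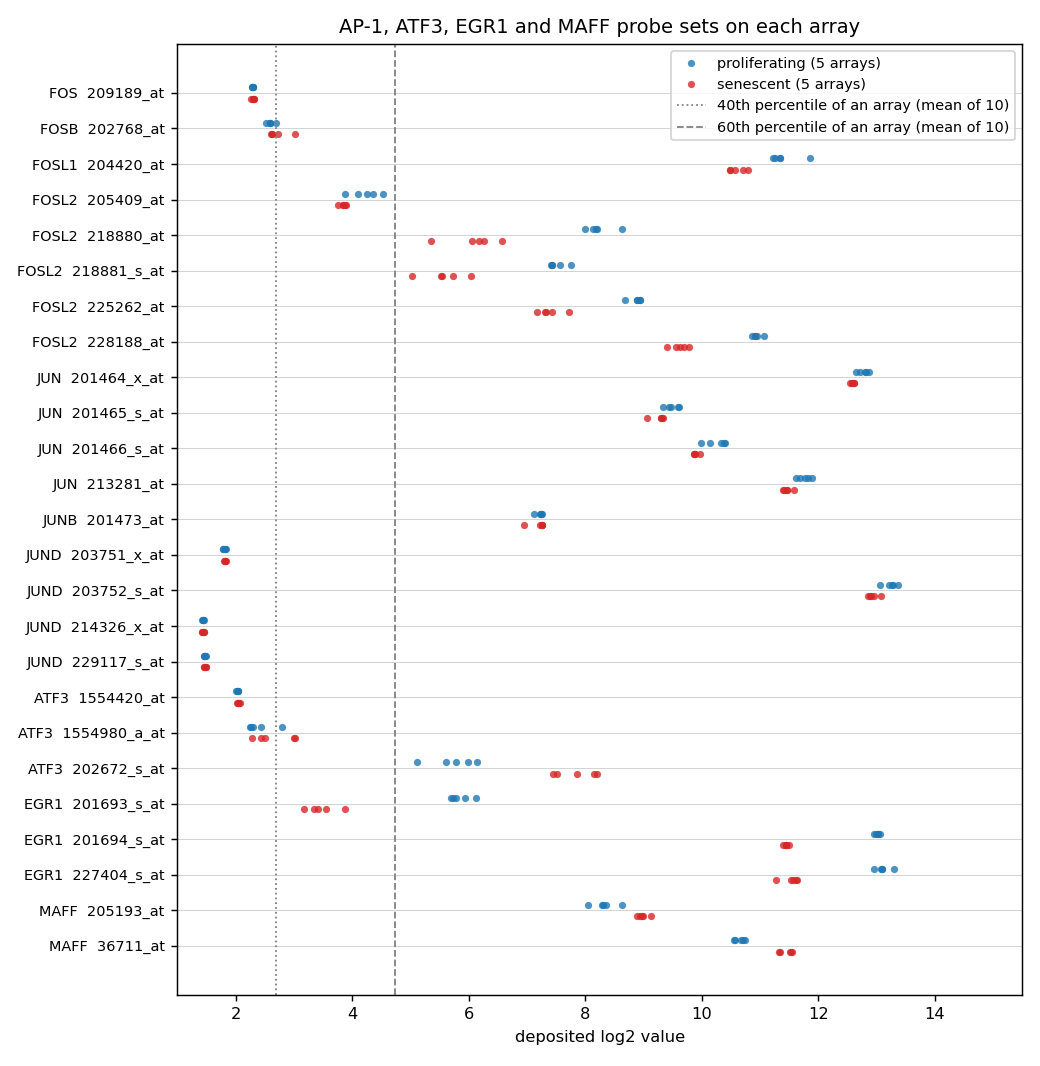
Deposited log2 values (x axis) of the 25 probe sets, 1 point per array, with 5 proliferating arrays in blue and 5 senescent arrays in red. Dotted and dashed lines are the 40th and 60th percentile of an array, averaged over the 10 arrays. FOS, FOSB, 3 of the 4 JUND probe sets and ATF3 on 1554420_at and 1554980_a_at lie near or below the 40th percentile in both groups. The groups are apart for EGR1, FOSL1, JUN, MAFF, 4 of the 5 FOSL2 probe sets and ATF3 on 202672_s_at.

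FOS, the founding AP-1 subunit and the usual marker of an acute serum response, had 1 probe set (209189_at), whose values lay between 2.27 and 2.32 on all 10 arrays and below the 40th percentile of every array. Its means were 2.29 ± 0.01 in proliferating and 2.30 ± 0.02 in senescent cells (SD, n = 5 each). FOSB read 2.53 to 2.69 on proliferating arrays and 2.60 to 3.02 on senescent arrays, and it exceeded the 40th percentile on 1 proliferating and 2 senescent arrays. The ranges overlapped for both genes. Neither was tested, since neither met the filter, and a level this low does not show that the transcript was absent. The promoter of FOS printed above carries the CRE core, and so do those of 7 other members.

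FOSL1 (Fra-1) and FOSL2 (Fra-2) were the FOS family members with clear signal, and both were lower in senescent cells. FOSL1 read 11.34, 11.33, 11.22, 11.25 and 11.85 on proliferating arrays 1 to 5 and 10.47, 10.58, 10.48, 10.71 and 10.79 on senescent arrays 1 to 5. The groups did not overlap, and proliferating array 5 stood above the other 4. FOSL1 fell by 0.79 on the log2 scale (SE 0.12, limma's adjusted p = 0.00029).

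FOSL2 was measured by 5 probe sets, all lower in senescent cells. The brightest, 228188_at, read 10.91, 11.06, 10.91, 10.95 and 10.86 on proliferating arrays 1 to 5 and 9.69, 9.62, 9.78, 9.56 and 9.41 on senescent arrays 1 to 5. Every senescent value thus lay more than 1 log2 unit below every proliferating value. It fell by 1.33 (SE 0.07, limma's adjusted p = 1.3e-07), which is 2.51-fold. The probe sets 225262_at, 218881_s_at and 218880_at fell by 1.47, 1.94 and 2.15, and the groups did not overlap on any of these. The dim probe set 205409_at, below the 60th percentile on all arrays, fell by 0.38 with overlapping ranges (adjusted p = 0.013), and this call was lost with the ACTB covariate (-0.23, adjusted p = 0.30, against 0.0012 to 0.30 over all alternatives). The size of the fall therefore ran from 1.30-fold to 4.44-fold with the probe set.

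The JUN family changed little. JUN, the central partner in AP-1 dimers, had 4 probe sets, and on each of them every senescent array was below every proliferating array. On 201464_x_at, the brightest, the values were 12.80, 12.87, 12.72, 12.64 and 12.81 on proliferating arrays and 12.58, 12.55, 12.57, 12.61 and 12.62 on senescent arrays, in the order 1 to 5. Proliferating array 4 came closest to the senescent values. The 4 differences were -0.18, -0.23, -0.35 and -0.30 for 201464_x_at, 201465_s_at, 201466_s_at and 213281_at, with SE 0.05, 0.07, 0.08 and 0.06 and limma's adjusted p = 0.0078, 0.021, 0.0036 and 0.0019. With the ACTB covariate 201464_x_at and 213281_at no longer passed (-0.12 and -0.17, adjusted p = 0.21 and 0.12). Without proliferating array 1, 201465_s_at did not pass (-0.20, adjusted p = 0.052). The fourth, 201466_s_at, passed under each alternative that could be fitted to it.

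JUNB, often described as a restraint on JUN in growth control, read 7.25, 7.23, 7.24, 7.25 and 7.11 on proliferating arrays and 7.26, 7.23, 6.95, 7.26 and 7.26 on senescent arrays. The ranges overlapped almost entirely, with senescent array 3 lowest. The difference was -0.02, with a 95% interval from -0.17 to 0.13 (limma's adjusted p = 0.78, exact permutation p = 0.93), so changes of more than about that size in either direction are outside the interval. JUND, the JUN protein linked to quiescence, was above the 40th percentile on 1 of its 4 probe sets. On 203752_s_at it read 13.28, 13.25, 13.36, 13.21 and 13.06 on proliferating arrays and 12.96, 12.90, 12.88, 12.85 and 13.07 on senescent arrays, in the order 1 to 5. Senescent array 5 lay above proliferating array 5, so the groups overlapped. JUND fell by 0.30 (SE 0.07, limma's adjusted p = 0.0030). Its remaining 3 probe sets stayed between 1.43 and 1.84 on all arrays and were not tested.

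Whether related genes changed by different amounts was tested on the difference between their probe sets within each array, which does not compare their levels. Of 9 planned pairs 4 could be formed, as FOS and FOSB had no tested probe set. JUND changed 0.28 more downwards than JUNB (exact permutation p = 0.00794, 0.032 adjusted over the 4 pairs). The change of FOSL2 was more negative than that of FOSL1 by 0.53 and did not pass (adjusted exact permutation p = 0.063), though it passed with the mean of each gene's probe sets (0.66, adjusted p = 0.032), without proliferating array 5 (0.67, adjusted p = 0.032) and without senescent array 3 (0.61, adjusted p = 0.042). It also passed without shared probe sets, where fewer pairs were compared (0.53, adjusted p = 0.032). JUN differed from JUNB by -0.16 and from JUND by 0.12 (adjusted exact permutation p = 0.11 and 0.17), and the JUN and JUNB difference passed without senescent array 3 (-0.22, adjusted p = 0.032) and without shared probe sets (-0.28, adjusted p = 0.032). The JUNB and JUND difference was 0.25 to 0.29 without proliferating array 1, 2, 3 or 4 (adjusted p = 0.063 each, so the call was lost), and it passed without any other single array (adjusted p = 0.032 each).

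EGR1, a zinc finger factor induced by the same stimuli as FOS, was high in proliferating cells and lower in senescent cells on all 3 of its probe sets. On 201694_s_at it read 12.99, 13.02, 13.02, 13.06 and 12.95 on proliferating arrays 1 to 5 and 11.39, 11.44, 11.50, 11.44 and 11.45 on senescent arrays 1 to 5. The spread within a group was 0.04 (SD) against a difference of -1.56 (SE 0.04, limma's adjusted p = 6.1e-10). On 227404_s_at, the brightest, the spread was wider, with SD 0.12 on proliferating and 0.15 on senescent arrays. The difference there was -1.58 (SE 0.08, limma's adjusted p = 1.1e-07), with the groups again apart. The remaining probe set, 201693_s_at, was far dimmer, at 5.86 ± 0.18 and 3.47 ± 0.26 (SD, n = 5 each), and fell by 2.39, ending below the 60th percentile on all senescent arrays. All 3 have names that mark a probe set shared between transcripts, so EGR1 drops out where such probe sets are left out, as do JUND and ATF3. Among the promoter windows searched above, only that of EGR1 held CArG boxes, and bases further upstream were not searched.

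ATF3, a basic leucine zipper factor of the stress response that can pair with JUN proteins, went the opposite way. On 202672_s_at it read 5.78, 5.11, 6.15, 5.99 and 5.61 on proliferating arrays 1 to 5 and 8.15, 7.85, 8.19, 7.52 and 7.45 on senescent arrays 1 to 5. All senescent values lay above all proliferating values, although the proliferating values themselves ran from 5.11 to 6.15. ATF3 rose by 2.11 (SE 0.22, limma's adjusted p = 1.6e-05), and by 1.43 with the ACTB covariate (adjusted p = 0.00014). Its other 2 probe sets had little signal. On 1554420_at all arrays lay between 2.01 and 2.07, and on 1554980_a_at the ranges of 2.25 to 2.80 and 2.29 to 3.03 overlapped, so the rise rests on 1 probe set.

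MAFF, a small MAF protein without an activation domain of its own, rose on both of its probe sets. On 36711_at it read 10.68, 10.57, 10.71, 10.73 and 10.55 on proliferating arrays 1 to 5 and 11.33, 11.33, 11.52, 11.55 and 11.53 on senescent arrays 1 to 5. The groups did not overlap, and the values within each group lay close together. The difference was 0.80 (SE 0.06, limma's adjusted p = 2.3e-06), and on 205193_at it was 0.66 (SE 0.10, adjusted p = 0.00023).

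**Figure D3:**
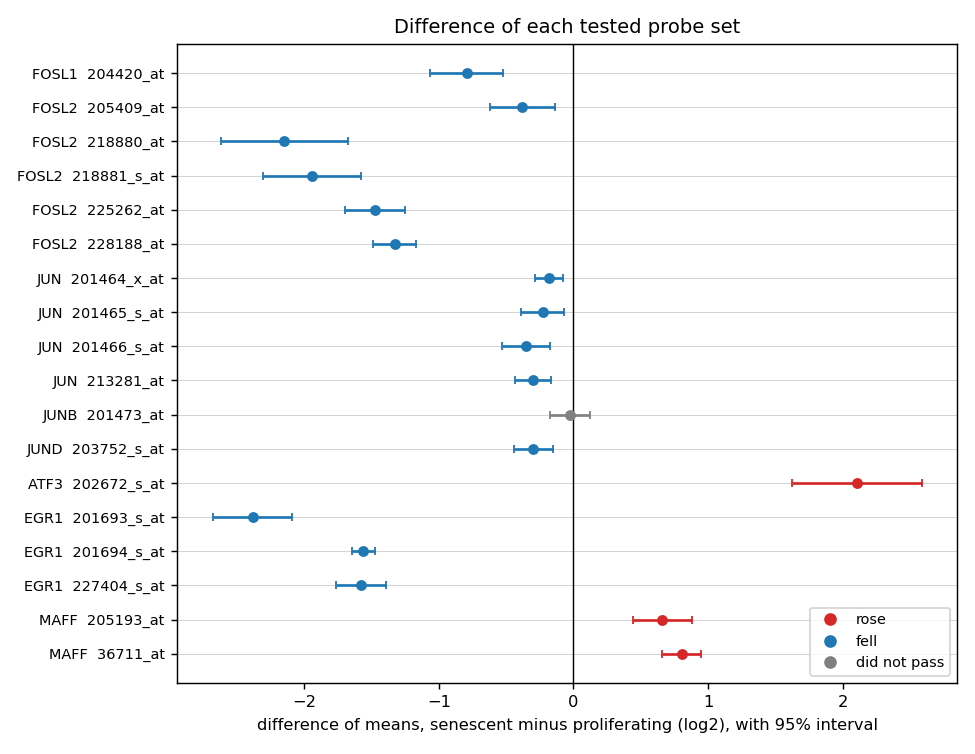
Difference of means, senescent minus proliferating, on the log2 scale (x axis) for the 18 tested probe sets, with bars for the 95% interval from limma. EGR1 and FOSL2 lie furthest to the left, ATF3 and MAFF to the right, and the interval of JUNB includes 0.

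Genes around these factors were read from lists, by each gene's brightest tested probe set. Over all tested genes 30.5% rose and 29.8% fell. The EGR family and its corepressors had 3 tested members of 5, of which 2 fell. NAB2 and NAB1, which bind EGR proteins and repress them, fell by 1.18 and 0.45 (limma's adjusted p = 0.00033 and 0.0058), while EGR3, named after its value was seen, differed by -0.22 at a low signal and did not pass (adjusted p = 0.083). With the ACTB covariate 1 of the 3 fell.

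Of 19 tested basic leucine zipper factors that can share partners with AP-1, 10 rose and 6 fell, against 30.5% and 29.8% of all tested genes, with a median of 0.20. MAF rose by 1.51 from little signal in proliferating cells. The endoplasmic reticulum stress sensor ATF6 rose by 1.22 on its brightest probe set, and all 4 of its tested probe sets were called higher. BATF3, a partner of JUN proteins in immune cells, fell by 2.05 to below the 60th percentile in senescent cells, and CREB5 fell by 1.12. The small MAF gene MAFG and the stress factor gene DDIT3, named after their values were seen, rose by 1.20 and 1.12.

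Of 33 other immediate early genes tested, 9 rose, 10 fell and 14 did not pass, with a median of 0.09. These shares are near the 30.5% and 29.8% of all tested genes and say nothing particular of the list. The prostaglandin synthase gene PTGS2 fell from 8.16 ± 0.32 to 6.35 ± 0.22 (SD, n = 5 each) and IER2 from 10.58 ± 0.34 to 9.08 ± 0.08, differences of -1.81 and -1.49 (limma's adjusted p = 5.0e-06 and 9.7e-06). KLF4 rose by 0.95 on 1 of its 2 tested probe sets, and ID2, an inhibitor of helix-loop-helix factors, rose by 0.94. MYC and the MAP kinase phosphatase gene DUSP1, named after their values were seen, moved apart, MYC falling by 1.11 and DUSP1 rising by 0.47.

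The list of serum response factor, which binds CArG boxes, its cofactors, ETS1, ETS2 and the coactivators CREBBP and EP300 had 10 tested genes. Of these 6 fell and 2 rose, against 29.8% and 30.5% of all tested genes, with a median of -0.34. Among the falls, ELK3 was lower on 1 of its 2 tested probe sets. ELK4 was lower on 1 of its 5, with overlapping groups. The remaining falls were called on all tested probe sets of the gene. MRTFB, an actin-sensing cofactor of SRF, and ETS1 fell by 0.88 and 0.86. MRTFA and ETS2 rose by 1.00 and 0.57, MRTFA on 1 of its 5 tested probe sets only. SRF, named after its value was seen, fell by 0.59 (SE 0.05, limma's adjusted p = 3.4e-06), from 10.48 ± 0.04 to 9.90 ± 0.09 (SD, n = 5 each).

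Among 21 tested kinases of the MAP kinase cascades, which phosphorylate JUN and the ternary complex factors, 6 rose, 4 fell and 11 did not pass (median 0.01), no more in either direction than the 30.5% and 29.8% of all tested genes. The p38 kinase gene MAPK13 fell by 2.60 and the p38 activator gene MAP2K6 by 2.01, the latter to 2.84 ± 0.27 (SD, n = 5). ARAF rose by 1.06 on 1 of its 2 tested probe sets, and the JNK gene MAPK10 by 0.86, also on 1 of 2 and below the 60th percentile on every array. The JNK genes MAPK8 and MAPK9, named after their values were seen, moved apart. MAPK8 fell by 0.40 and MAPK9 rose by 0.36 (limma's adjusted p = 0.00020 and 0.00045). The call was shared by 4 of 5 tested probe sets of MAPK8 and 2 of 3 of MAPK9.

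Of 25 tested genes that textbook accounts give as AP-1 targets, 9 rose and 10 fell, with a median of -0.09, against 30.5% and 29.8% of all tested genes. MMP3, the gene of stromelysin, rose from 4.06 ± 0.27 to 8.88 ± 0.13 (SD, n = 5 each), and the endothelin gene EDN1 rose by 2.04. IL1B and the chemokine gene CCL2 fell by 3.29 and 2.62. MMP3 in proliferating cells and IL1B in senescent cells were below the 60th percentile on all arrays, so those differences involve values of little signal. For scale, the proliferation gene MKI67 fell by 5.31 and LMNB1, the gene of the lamin in the series title, by 5.51.

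**Figure D4:**
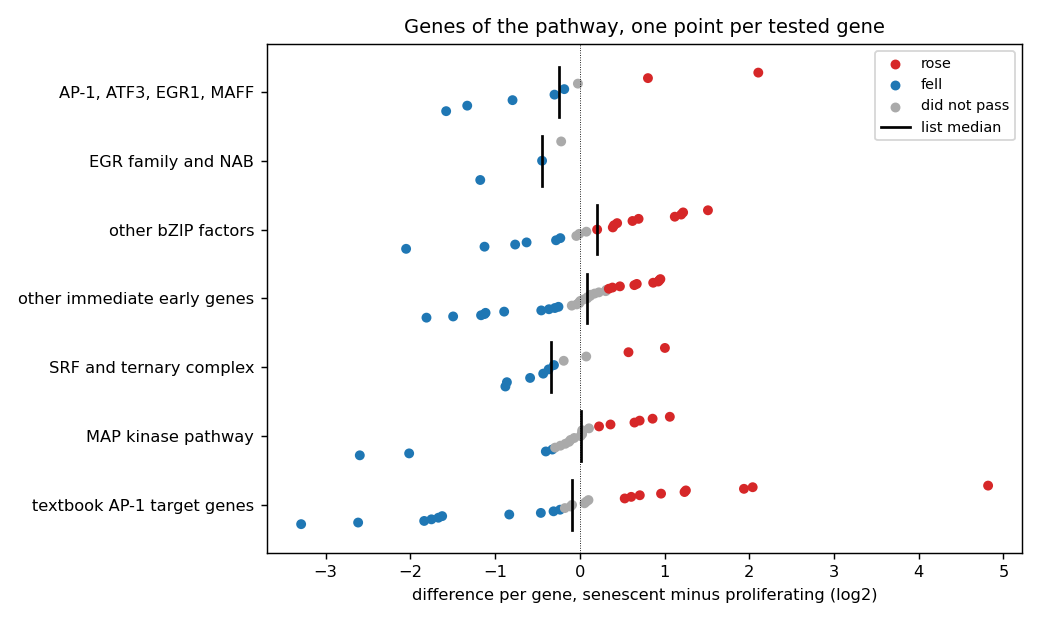
Each point is a tested gene, at its difference of senescent minus proliferating means on the log2 scale (x axis), coloured by limma's call, with a black bar at the median of the list. The medians lie between -0.45 (EGR family and NAB) and 0.20 (other basic leucine zipper factors), and each list except EGR and NAB holds genes that rose and genes that fell.

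The genes whose profile over the 10 arrays was nearest to the largest rise and the largest fall by brightest probe set were named by the root mean square difference of centred log2 values. Nearest to ATF3 were SCN4B, IL17D and BMPER, at 0.18, 0.21 and 0.21, with differences of 2.18, 2.27 and 1.89. Nearest to EGR1 were PAICS, SEPHS1 and SRSF7, at 0.06, 0.07 and 0.08, with differences of -1.61, -1.57 and -1.53. The measure is dominated by the difference between the groups, which the arrays of each group share.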

How the data were processed

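The authors deposited log2 values for each probe set on 10 arrays. Partek and GCRMA are named, per the submitters' processing notes, with no version, role or order. Nothing states the scale, which was taken as log2 because values run from 0.62 to 16.17. How background was corrected is not stated in the labels, and detection calls and scanner files were not used here. The values were used as deposited, with array medians of 3.05 to 3.12. Names came from the platform annotation and were brought up to date by gene ID with RefSeq (GRCh38.p14). Of 54675 probe sets 62 were controls, 41091 had 1 gene symbol, 1801 several and 11721 none.

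All 32732 probe sets that met the filter were fitted with lmFit and eBayes of limma 3.58.1 (R 4.3.3), senescent minus proliferating, two-sided, with Benjamini-Hochberg adjustment over all of them and a threshold of 0.05. Exact permutation tests ran over all 252 assignments of the arrays, with 0.00794 the smallest p possible. Rose and fell are used for probe sets past the threshold. The members and lists were chosen with earlier results of these data known. Named genes outside the members were the 2 called genes with the largest difference in each direction of each list and the 3 genes nearest in profile to the members with the largest rise and fall. EGR3, MAFG, DDIT3, MYC, DUSP1, SRF, ELK3, ELK4, MAPK8 and MAPK9, and the markers of cell types, were named outside this rule after their values were seen. Replicate numbers shared by the groups were not stated to pair arrays. Simulated data had 5 against 5 arrays and 32732 probe sets, with only 50 probe sets changed at each size. Calls were made for 32% of those changed by 0.5, 86% by 1 and 100% by 2 or 4 (log2). Of 168 calls 9 were false. In the deposited data 53.0% of tested probe sets were called, so the adjustment was stricter in the simulation. The simulated shares therefore do not give the sensitivity of the calls above. Alternatives are listed in the closing section. Promoter motifs were searched in Python 3.11.15 and plots drawn with matplotlib 3.10.9.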

Additional observations from a re-analysis of the deposited data

Results flagged for a closer look

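Dixon's ratio was read in each group of 5 arrays for each of the 25 probe sets, 50 groups in all, where chance alone marks about 1 in 20. In 7 of them 1 array stood apart. FOSL1 on proliferating array 5 was 11.85, against 11.22 to 11.34 on the other 4. JUNB was lowest on proliferating array 5 at 7.11, against 7.23 to 7.25, and on senescent array 3 at 6.95, against 7.23 to 7.26. FOSL2 on 225262_at was lowest on proliferating array 1 at 8.69, against 8.88 to 8.93. JUN on 201465_s_at was lowest on senescent array 5 at 9.06, against 9.29 to 9.33, and on 201466_s_at highest on senescent array 3 at 9.97, against 9.86 to 9.89. FOSB on senescent array 2 was 3.02, against 2.60 to 2.72, at a level near background. Proliferating array 5 and senescent array 3 were named by 2 of these each.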

How the results depend on the processing

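The fit was repeated with every probe set kept, with the filter moved to the 60th percentile, and with the arrays centred on all tested probe sets, centred on 24 housekeeping genes or quantile normalised. It was also repeated with a replicate block, array weights, a robust trended prior, the ACTB covariate, 1 value per gene (brightest or mean), no shared probe sets, 4 against 4 arrays, and each of the 10 arrays left out. The calls of FOSL1, EGR1, ATF3, MAFF, JUND and the brighter 4 FOSL2 probe sets kept their direction and side of the threshold in each of these that could be fitted to them, and no called difference of a member changed sign. Lower probe sets numbered 14 of 18 and became 5 of 8 genes with the brightest probe set or the mean, and 6 without shared probe sets, where fewer features were tested. With the same 18 tested, 11 were lower with the ACTB covariate and 13 with the replicate block or without proliferating array 1. Over the whole array 4004 rose and 3909 fell by brightest probe set, 4131 and 3918 by the mean, and 5521 and 5017 without shared probe sets, against 8798 and 8562. Centring on the housekeeping genes gave 7305 and 9696, and the ACTB covariate 6544 and 6744. Same-numbered arrays shared little deviation (correlations of same-numbered deviations -0.06 to 0.09, and 2 of 5 arrays matched their own number best). These values cannot tell whether such arrays shared a culture or a batch. With the replicate block 8419 probe sets rose and 8229 fell, and 201465_s_at of JUN no longer passed (adjusted p = 0.075). Of the 4 pairs of related genes 1 passed, against 2 with the mean of probe sets, 2 without shared probe sets, 0 with 4 against 4 arrays, 0 with the replicate block and 0 to 3 when an array was left out. The block allows no p under 0.0625, so its count says nothing about stability. With 4 against 4 arrays fewer assignments exist, and a single pair cannot pass the adjustment on its own. The count for 4 against 4 arrays therefore says little about stability. The cause of these moves was not tested. Signal near background limits what FOS, FOSB and 5 further probe sets of JUND and ATF3 can show.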
